A study of Mus musculus with 34 samples.

Results

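Liver transcript levels of Gpcpd1, Ly6c1 and AK009137 were followed in mouse pups whose thyroid hormone (TH) supply had been lowered, raised or replaced for a short time. The members were 3 of the 33541 identifiers on the array, each with 1 of its 41174 probes. They were the non-control probes whose identifier was matched through its RefSeq accession to Gpcpd1 (A_52_P384069, NM_001042672) or Ly6c1 (A_52_P230938, NM_010741), or was the GenBank entry AK009137 (A_52_P407755). These genes were chosen by the rise of their levels in hypo+ over hypo pups, so that their values in that contrast are a description without a test. The probe that the accession gives for Ly6c1 did not show this rise, as set out below. A further 3 probes fell outside this choice and are given beside the members: A_51_P464791 and A_52_P470017, both for NM_001042671, which the study's tables name Prei4, an older name of Gpcpd1 in RefSeq, and A_51_P197528 for D86232, a GenBank Ly-6C entry that those tables name Ly6c. They were added after their values had been seen.

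Gpcpd1 encodes a glycerophosphodiester phosphodiesterase that splits glycerophosphocholine into choline and glycerol-3-phosphate, a step in the breakdown of phosphatidylcholine. Ly6c1 encodes a small surface protein with a lipid anchor, best known as a marker of monocyte subsets and also made by endothelial cells and some T cells, and it has a closely similar neighbour in the mouse genome, Ly6c2. No symbol was matched to AK009137, a mouse cDNA entry, and its function and position are not given here. TH acts on the liver through nuclear receptors that bind DNA and change the transcription of their target genes.

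Each array carried liver RNA of 1 C57BL/6 pup at postnatal day (PND) 15, labelled with Cy5, against a universal mouse reference RNA labelled with Cy3. There were 34 arrays, 17 of each sex. Control pups (4 males and 4 females) had no exposure to the goitrogens, which lower TH output, and were injected with saline. Hyper pups (5 of each sex) also had no exposure and received 50 µg T4 and 5 µg T3 per 100 g body weight 4 hours before they were killed. The dams of hypo pups (4 males and 5 females) drank water with 0.05% methimazole, which blocks TH synthesis, and 1% sodium perchlorate, which blocks iodide uptake, from shortly before PND 15 until that day, and the pups were injected with saline. Hypo+ pups (4 males and 3 females) had the same exposure and then received 20 µg T4 and 2 µg T3 per 100 g body weight 4 hours before death. By the study's methods they were a subset of the injected pups, selected for serum T4 near or slightly above control. All groups were of 1 inbred strain, and each array was a separate pup, whose litter the labels do not give.

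The values below are log2 ratios of pup to reference signal after loess normalization, without subtraction of background. A value of 0 is the level of the reference RNA and a step of 1 is a doubling of the ratio. For dim probes the background kept in the signal makes differences look smaller. All 6 probes were well above background in both channels on all 34 arrays. Over all spots, 60.8% to 79.4% were well above background in the Cy5 channel. All 9 of the hepatocyte markers measured were well above background on at least 17 arrays. Pancreatic acinar markers (13 genes) stood high in 4 pups, in which their mean log2 ratio was 4.72 (control male 832), 4.35 (control male 522), 3.57 (control female 831) and 2.18 (hypo+ female 543), against at most 0.77 in the other pups. Slide 6 held 2 arrays, both hypo+ (male 363 and female 601), and no other group. Apart from the small differences of Ly6c1, values without these pups are given below where leaving them out changed a call or moved a value by over 1.5 times. Since whole liver was measured, a smaller number of cells of a type and a smaller amount of RNA in each cell cannot be told apart.

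Gpcpd1 was lowest in hypo livers and highest in hyper and hypo+ livers of both sexes. In control males its log2 ratio was 0.64, 0.93, 1.10 and 1.67, and in hyper males it was 1.37, 1.66, 1.66, 1.94 and 2.11. Hypo males had -0.09, 0.23, 0.32 and 0.52, and hypo+ males had 1.36, 1.43, 1.59 and 2.63. All 4 hypo+ males thus lay above all 4 hypo males, and all 4 control males also lay above them, while control male 522 overlapped the hyper group.

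In control females the log2 ratio of Gpcpd1 was 0.74, 0.86, 1.19 and 1.35, and in hyper females it was 1.26, 1.51, 1.88, 1.91 and 2.01. In hypo females it was 0.21, 0.31, 0.54, 0.55 and 0.79, and in hypo+ females 1.39, 1.63 and 2.68. The 3 hypo+ females lay above all 5 hypo females, whereas hypo and control females overlapped, as did control and hyper females.

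AK009137 followed the same order of groups, with its highest values in hypo+ pups. In control males its log2 ratio was 0.77, 1.12, 1.19 and 1.98, and in hyper males it was 1.93, 2.00, 2.20, 2.21 and 2.27. In hypo males it was 0.26, 0.71, 0.72 and 0.86, and in hypo+ males 2.32, 2.42, 2.48 and 3.03. Every hypo+ male was above every hypo male. Of the hyper males, 4 of 5 were above all controls, again with control male 522 as the control that overlapped.

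In control females the log2 ratio of AK009137 was 0.91, 1.47, 1.70 and 1.89, and in hyper females it was 1.57, 1.79, 1.85, 1.93 and 2.19. In hypo females it was 0.41, 0.67, 0.68, 1.35 and 1.49, and in hypo+ females 1.70, 2.17 and 3.44. Females were spread more widely than males in the hypo and hypo+ groups, with an SD of 0.47 and 0.90 against 0.26 and 0.32 in males. The SD of hypo+ females rests on 3 pups, of which female 601 of slide 6 was at 3.44. In controls the males were spread more widely, with an SD of 0.51 against 0.42 in females. The 3 hypo+ females were above the 5 hypo females, but control females overlapped with each of the other groups.

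**Figure D1:**
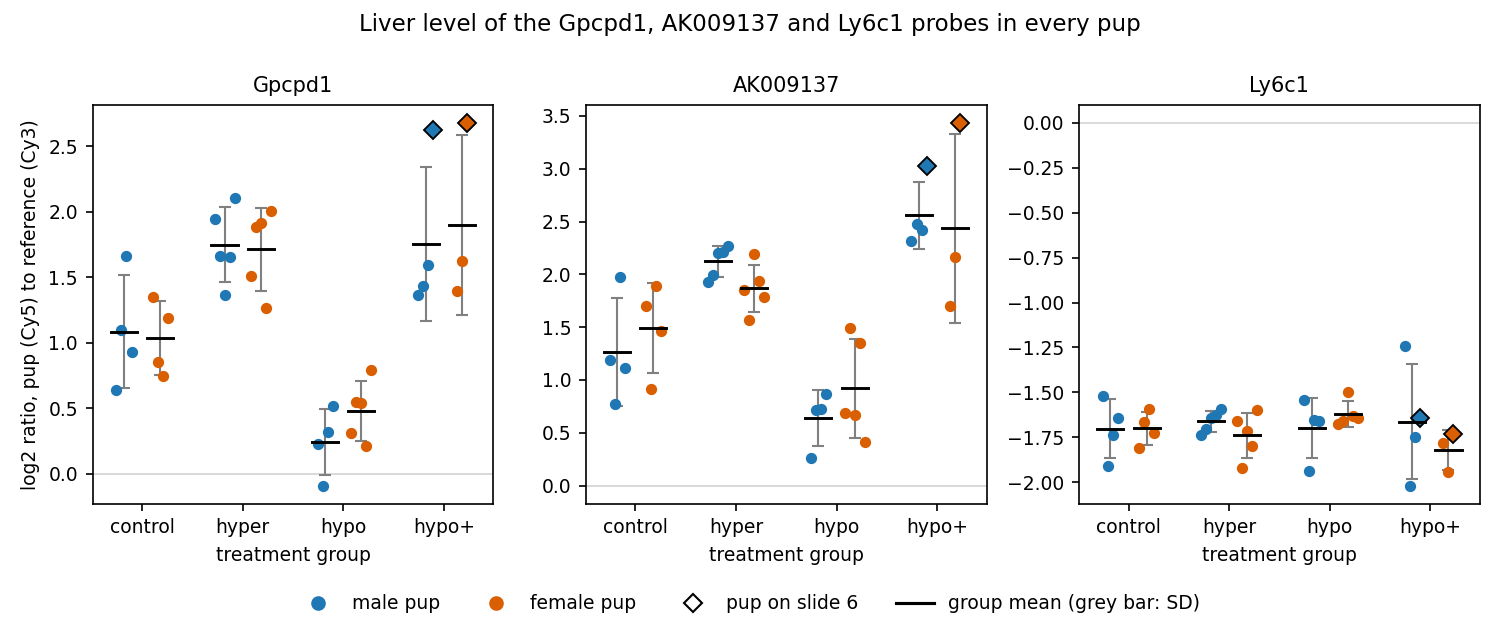
Log2 ratio of pup to reference (vertical axis, a separate scale for each probe) of Gpcpd1, AK009137 and Ly6c1 in the 4 treatment groups, with 1 point for each of the 34 pups, black lines for group means and grey bars for the SD. Gpcpd1 and AK009137 are low in hypo and high in hyper and hypo+ pups, with the pups of slide 6 highest, whereas all Ly6c1 values lie between -2.02 and -1.24.

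Ly6c1, as measured by its RefSeq probe, stayed at nearly the same level in all groups. In males the log2 ratio was -1.91, -1.74, -1.64 and -1.52 in control, -1.94, -1.66, -1.66 and -1.54 in hypo, and -2.02, -1.75, -1.64 and -1.24 in hypo+ pups. The 5 hyper males lay between -1.73 and -1.59. In males the means of the 4 groups were within -1.70 and -1.66, closer together than the pups of any single group.

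In females the log2 ratio of Ly6c1 was -1.81, -1.72, -1.67 and -1.59 in control pups and lay between -1.92 and -1.60 in hyper pups. It was -1.67, -1.66, -1.64, -1.63 and -1.50 in hypo and -1.94, -1.78 and -1.73 in hypo+ females. Hypo+ minus hypo was 0.04 in males and -0.20 in females. These values do not show the rise on injection for which this probe is named. Its signal was dim, with a median Cy5 signal of 172 against a local background of 82.3, while the reference channel was brighter.

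The D86232 probe, in contrast, differed between hypo, control and hyper pups without overlap. In males its log2 ratio was -0.18, 0.17, 0.17 and 0.18 in control, 0.37, 0.47, 0.63, 0.72 and 0.84 in hyper, -1.28, -1.21, -0.83 and -0.72 in hypo, and -0.05, 0.13, 0.24 and 0.26 in hypo+ pups. The females had -0.01, 0.05, 0.08 and 0.15 in control, 0.56, 0.62, 0.70, 0.83 and 0.83 in hyper, -1.39, -1.26, -1.11, -1.03 and -0.89 in hypo, and 0.06, 0.24 and 0.46 in hypo+ pups. In both sexes hypo pups were lowest, control and hypo+ pups overlapped in the middle, and hyper pups were above all others. Over all probes, every control was above every hypo pup for 1.59% in males and 0.926% in females. Every hyper pup was above every control for 0.902% and 1.3%. The share between hyper and hypo+ pups is not given here, so nothing is read from that step. The probe was bright, with a median Cy5 signal of 7585. Which of Ly6c1 and Ly6c2 it binds could not be settled, since the array files hold no probe sequence and the transcripts of this pair are closely alike.

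The first NM_001042671 probe gave 1.68, 1.68, 1.83 and 2.49 in control, 2.51, 2.53, 2.71, 2.90 and 2.96 in hyper, 0.92, 0.95, 1.03 and 1.13 in hypo, and 2.20, 2.71, 3.13 and 3.40 in hypo+ males. In females it gave 1.51, 1.79, 1.98 and 2.33 in control, 2.19, 2.30, 2.48, 2.52 and 2.71 in hyper, 1.01, 1.05, 1.17, 1.17 and 1.45 in hypo, and 2.43, 2.44 and 3.63 in hypo+ pups. Hypo pups of both sexes were below all others by this probe. The second NM_001042671 probe followed the first with a correlation of 0.99 over the 34 arrays. Its group means were 1.08 in hypo and 2.88 in hypo+ males and 1.12 in hypo and 2.91 in hypo+ females. With both, as with the Gpcpd1 member probe, hypo and hypo+ pups did not overlap in either sex.

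**Figure D2:**
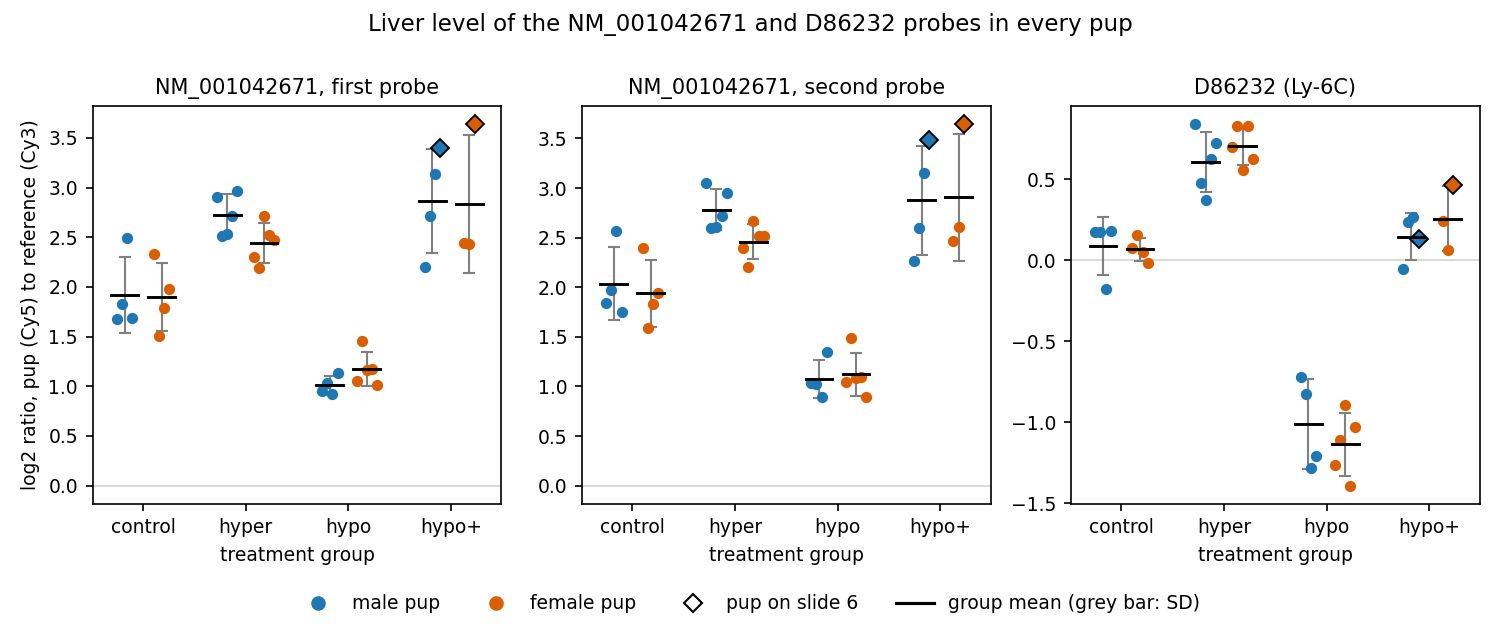
Log2 ratio of pup to reference (vertical axis, a separate scale for each probe) of both NM_001042671 probes and D86232 in the 4 treatment groups, with 1 point for each of the 34 pups, black lines for group means and grey bars for the SD. All 3 probes are lowest in hypo pups, and D86232 is highest in hyper pups and overlaps between control and hypo+ pups.

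The order of the group means therefore differed among the probes. For Gpcpd1 and AK009137 it ran from hypo through control and hyper to hypo+ in both sexes. The step from hyper to hypo+ was only 0.005 for Gpcpd1 in males. Without slide 6, hypo+ exceeded control by 0.38 and 0.48 for Gpcpd1 in males and females, less than hyper did, at 0.66 and 0.68. Its order then ran from hypo through control and hypo+ to hyper, the order given below for D86232. The neighbours hypo and control did not overlap for Gpcpd1 in males, and the neighbours hyper and hypo+ did not overlap for AK009137 in males. The share of all probes without overlap between hyper and hypo+ pups is not given here, so nothing is read from the latter. Each other pair of neighbours overlapped for both probes in both sexes. For D86232 the order was hypo, control, hypo+ and hyper in both sexes, and the only neighbours that overlapped were control and hypo+. Here too nothing is read from the lack of overlap between hypo+ and hyper pups. For Ly6c1 all neighbours overlapped and the order differed between the sexes.

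Because the D86232 probe could belong to Ly6c1 or Ly6c2, the RefSeq promoter windows of both are shown (GRCm38.p6, minus strand, from 250 bases before to 50 bases after the annotated start). No such window was available for Gpcpd1, so its promoter was not searched. The capitals mark AGGTCA, the half-site to which TH receptors bind in many target genes.
Ly6c1, chr15:75048788-75049087: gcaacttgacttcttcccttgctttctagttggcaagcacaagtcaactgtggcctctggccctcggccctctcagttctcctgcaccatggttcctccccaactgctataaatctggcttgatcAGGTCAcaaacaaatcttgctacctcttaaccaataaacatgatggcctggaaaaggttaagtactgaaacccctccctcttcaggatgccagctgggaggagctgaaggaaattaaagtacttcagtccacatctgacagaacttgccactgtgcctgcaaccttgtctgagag
Ly6c2, chr15:75111922-75112221: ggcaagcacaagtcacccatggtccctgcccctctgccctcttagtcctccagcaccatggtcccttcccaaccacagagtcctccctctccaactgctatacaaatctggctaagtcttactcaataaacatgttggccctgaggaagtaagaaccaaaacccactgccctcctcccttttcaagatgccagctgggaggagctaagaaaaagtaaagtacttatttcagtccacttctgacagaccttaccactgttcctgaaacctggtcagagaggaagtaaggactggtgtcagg
AGGTCA was searched on both strands and was found once in this Ly6c1 window, at position -125 from the start, and not in the second annotated Ly6c1 window, chr15:75048614-75048913, nor in either of the 2 Ly6c2 windows. Of all 32851 promoter windows of this length, 16.3% held it. The direct repeat of AGGNCA with a spacer of 4 bases, searched on both strands and able to overlap with AGGTCA, was not found in any of the 4 windows and was present in 0.253% of all windows. A match of these letters is a description of the window and not a binding site.

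The response of pups without goitrogen exposure was tested in hyper against control pups, a contrast that was not used to choose the members. Gpcpd1 was higher in hyper than in control males by 0.66 in log2 ratio (SE 0.24, 95% confidence interval 0.15 to 1.18, adjusted p = 1.00 by limma) and in hyper than in control females by 0.68 (SE 0.22, interval 0.21 to 1.15, adjusted p = 0.503). The mean of both sexes was 0.67 (SE 0.17, interval 0.32 to 1.03, adjusted p = 0.0615 by limma), a 1.59-fold difference that did not pass the threshold of 0.05. The unadjusted p of the mean was 0.000569. The call for this mean depended on single pups, and without control male 522, hyper male 498, hyper female 861, hypo+ male 363 or hypo+ female 601 the adjusted p fell below the threshold, with a lowest value of 0.0235.

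AK009137 was higher in hyper than in control males by 0.86 (SE 0.20, interval 0.44 to 1.28, adjusted p = 0.245 by limma), a 1.81-fold difference. In females the difference was 0.38 (SE 0.30, interval -0.26 to 1.01, adjusted p = 0.954), and the mean of both sexes was 0.62 (SE 0.19, interval 0.23 to 1.00, adjusted p = 0.169). Without control male 522, the highest control, the difference in males was 1.10 and the adjusted p by limma was 0.0206. Without slide 6 the mean of both sexes was 0.62 with an adjusted p of 0.0467 by limma.

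Ly6c1 differed by 0.04 in males (interval -0.21 to 0.30), by -0.04 in females (interval -0.18 to 0.11) and by 0.00 over both sexes (interval -0.14 to 0.15, adjusted p = 1.00 by limma). The last interval runs from 0.905-fold to 1.11-fold in the ratio of signals. Background was not subtracted and the probe was dim, so this interval does not bound the change of the transcript itself.

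Called higher in hyper than in control were thus 0 of the 3 members in males, where 0.0753% of all probes were, 0 of 3 in females, where 0.151% were, and 0 of 3 over both sexes, where 0.665% were. At an unadjusted p below 0.05 by limma, Gpcpd1 and AK009137 passed in males and over both sexes and Gpcpd1 passed in females, against 1224 probes in males, 2535 in females and 2882 over both sexes. Every hyper male lay above every control male for 0 of the 3 members, where this held for 0.902% of all probes, and every hyper female above every control female for 0 of 3, where it held for 1.3%.

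Of the probes outside the rule, D86232 was higher in hyper pups by 0.52 in males (SE 0.12, adjusted p = 0.302) and rose by 0.64 in females (SE 0.10, adjusted p = 0.0116 by limma) and by 0.58 over both sexes (SE 0.08, interval 0.41 to 0.75, adjusted p = 8.04e-05). The call in females was lost without control female 523 or 882, with an adjusted p of at most 0.0637. The first NM_001042671 probe rose by 0.67 over both sexes (SE 0.15, adjusted p = 0.0241 by limma) and the second by 0.63 (SE 0.15, adjusted p = 0.0389). These calls held in 28 and 21 of the 34 fits that left out 1 pup, and the lowest value was 0.61 and 0.58, each without control female 831. Littermates of both sexes may share a dam, and the labels do not give the litter. With a litter assumed from the animal number as a random block, the second probe missed the threshold (0.63, adjusted p = 0.0528 by limma). In single sexes neither of these 2 probes passed, with differences from 0.52 to 0.80.

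The hyper response did not differ detectably between males and females. The difference, female minus male, was 0.02 for Gpcpd1 (interval -0.69 to 0.73), -0.48 for AK009137 (interval -1.25 to 0.29), -0.08 for Ly6c1 (interval -0.37 to 0.21) and 0.12 for D86232 (interval -0.21 to 0.45). Without the pups with acinar markers these values were -0.34, -0.79, 0.05 and 0.24. With 1 array left out they ranged from -0.18 to 0.16 for Gpcpd1, from -0.72 to -0.32 for AK009137, from -0.14 to -0.01 for Ly6c1 and from 0.06 to 0.21 for D86232. Over all probes limma called 0 for this difference, and 518 had an unadjusted p below 0.05, none of them a member.

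**Figure D3:**
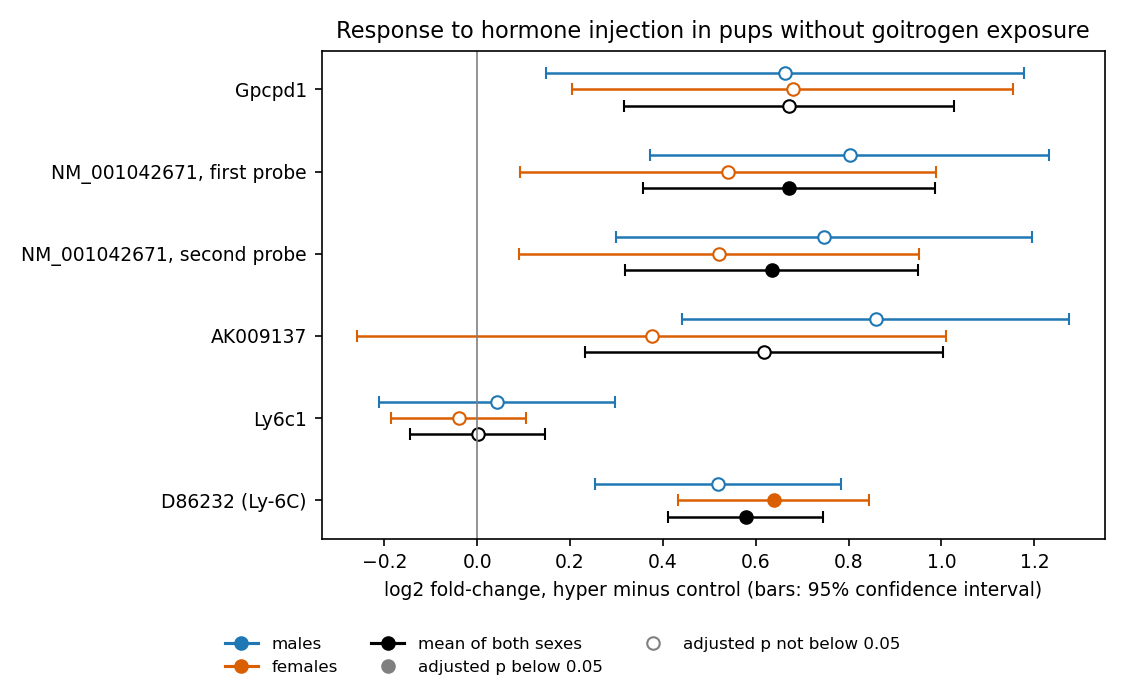
Log2 fold-change of hyper over control pups (horizontal axis, bars for the 95% confidence interval) for the 6 probes in males, in females and as the mean of both sexes, with filled points where the adjusted p was below 0.05. The estimates of all probes but Ly6c1 lie between 0.38 and 0.86, and the filled points are D86232 in females and, for the mean of both sexes, D86232 and both NM_001042671 probes.

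The 3 pups that carried the acinar signal among the controls bear on these comparisons, in which limma called 0 of the 13 acinar markers, with 12 in males and 0 in females at an unadjusted p below 0.05, and the list's median log2 fold-change was -1.96 for males and -0.69 for females, beside 0.00 and -0.01 over all probes. The range of the mean log2 ratio of the list was 0.52 to 4.72 in control and 0.46 to 0.66 in hyper males, and 0.54 to 3.57 in control and 0.50 to 0.74 in hyper females. Without all 4 pups with these markers, the mean of both sexes was 0.79 for Gpcpd1 (adjusted p = 0.0834 by limma), 0.58 for AK009137 (adjusted p = 0.360) and 0.55 for D86232 (adjusted p = 0.00276). The first NM_001042671 probe was at 0.72 (adjusted p = 0.0368) and the second at 0.70 (adjusted p = 0.0722) by limma. The females' difference of AK009137 was 0.18 there, against 0.38 with all pups.

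Gpcpd1 and AK009137 stood higher in injected than in saline-treated pups both after goitrogen exposure and without it. The hormone dose was lower in hypo+ than in hyper pups, so the values of both responses are set side by side without a test. Hypo+ minus hypo was 1.51 for Gpcpd1 in males and 1.42 in females, a 2.85-fold and a 2.68-fold difference, beside 0.66 and 0.68 for hyper minus control. For AK009137 it was 1.92 and 1.52 (3.78-fold and 2.86-fold), beside 0.86 and 0.38. For Ly6c1 it was 0.04 and -0.20, beside 0.04 and -0.04.

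Hypo+ and hypo pups did not overlap for 2 of the 3 members, Gpcpd1 and AK009137, in both sexes. Over all probes every hypo+ male was above every hypo male for 2.2%, and every hypo+ female above every hypo female for 2.36%, but nothing can be read from this count because this contrast chose the members. The probes outside the rule gave hypo+ minus hypo differences of 1.15 and 1.39 for D86232, 1.86 and 1.66 for the first NM_001042671 probe, and 1.80 and 1.78 for the second, in males and females.

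The pups of slide 6 were the highest of their group for Gpcpd1, at 2.63 and 2.68, and for AK009137, at 3.03 and 3.44. Without them hypo+ minus hypo was 1.22 and 1.03 for Gpcpd1 and 1.76 and 1.02 for AK009137 in males and females. For D86232 it was 1.16 and 1.29, nearly as with all pups. Whether the slide or the pups set these values cannot be told apart, since the slide held no other group.

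**Figure D4:**
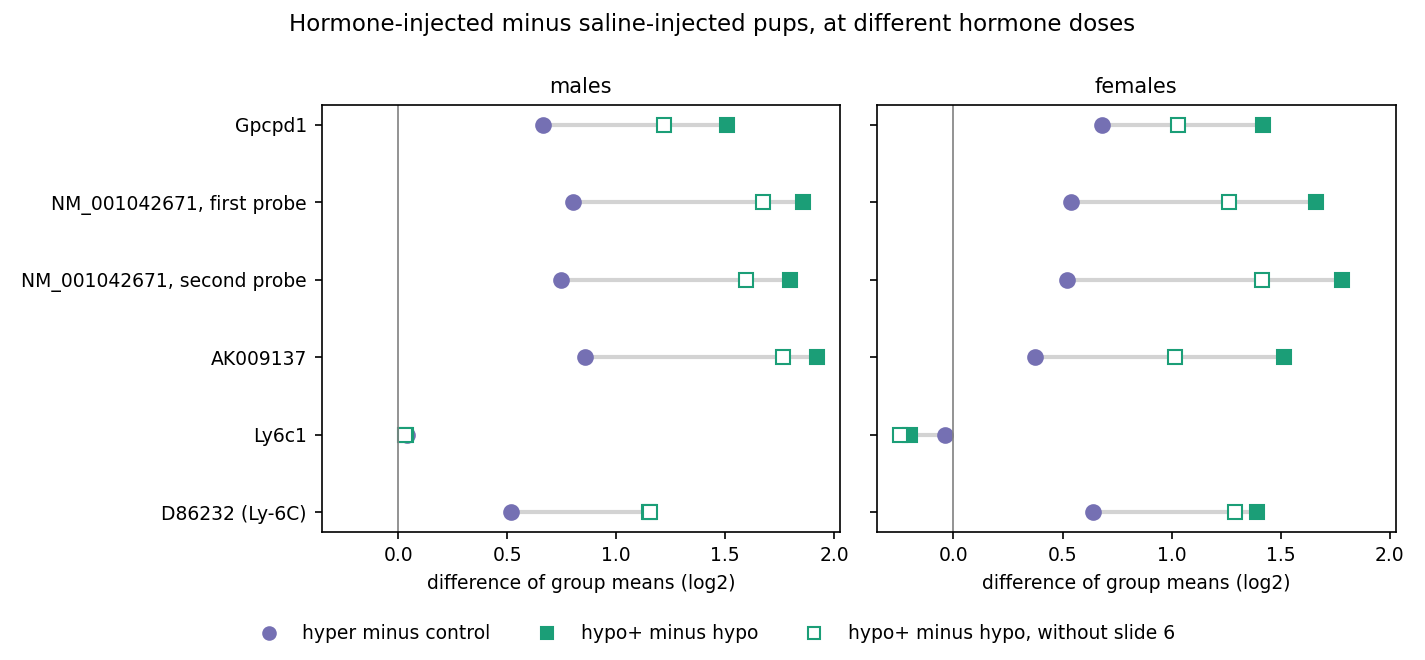
Difference of group means in log2 ratio (horizontal axis) for hyper minus control (circles) and hypo+ minus hypo (squares, open without slide 6) for the 6 probes in males and females. For all probes but Ly6c1 the squares lie to the right of the circles, also when open, while the hormone dose was lower in hypo+ than in hyper pups.

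Relative to controls, hypo pups were lower by Gpcpd1, AK009137 and D86232. Hypo minus control was -0.84 and -0.56 for Gpcpd1, -0.62 and -0.57 for AK009137, 0.00 and 0.08 for Ly6c1, and -1.09 and -1.20 for D86232 in males and females. Every control male was above every hypo male for 1 of the 3 members, Gpcpd1, where this held for 1.59% of all probes, and every control female was above every hypo female for 0 of 3, where it held for 0.926%. Without the pups with acinar markers the males' difference was -0.54 for Gpcpd1, and without control male 522 it was -0.39 for AK009137. These comparisons share the hypo arrays with the contrast that chose the members and are a description.

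Hypo+ pups were above controls for Gpcpd1 by 0.67 in males and 0.87 in females, and for AK009137 by 1.30 and 0.94. Without slide 6 these differences were 0.38 and 0.48 for Gpcpd1 and 1.14 and 0.45 for AK009137. D86232 in hypo+ pups was 0.06 and 0.19 above control, and the groups overlapped in both sexes. The females' value was 0.09 without slide 6 and 0.31 without the pups with acinar markers, and the males' was -0.03 without the latter. With median centring in place of loess the males' value of D86232 was -0.25. These comparisons share the hypo+ arrays with the contrast that chose the members and are likewise a description.

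Several pups shared each slide, which allowed comparisons on the same slide. On the 8 slides with both groups, hyper minus control was above 0 on 7 for Gpcpd1 (median 0.92), on 8 for AK009137 (median 0.49), on 5 for Ly6c1 (median 0.07) and on 8 for D86232 (median 0.58). The 1 slide that went the other way for Gpcpd1 was that of control male 522, at -0.30. On the 4 slides with both groups, hypo+ minus hypo was above 0 on all 4 for Gpcpd1, with values from 1.08 to 1.45, for AK009137, from 0.67 to 1.75, and for D86232, from 0.77 to 1.52. For Ly6c1 it was above 0 on 1 of the 4. With slide as a fixed block, the mean hyper response of Gpcpd1 passed the threshold at 0.71 (adjusted p = 0.00489 by limma), and so did that in females at 0.77 (adjusted p = 0.0262).

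**Figure D5:**
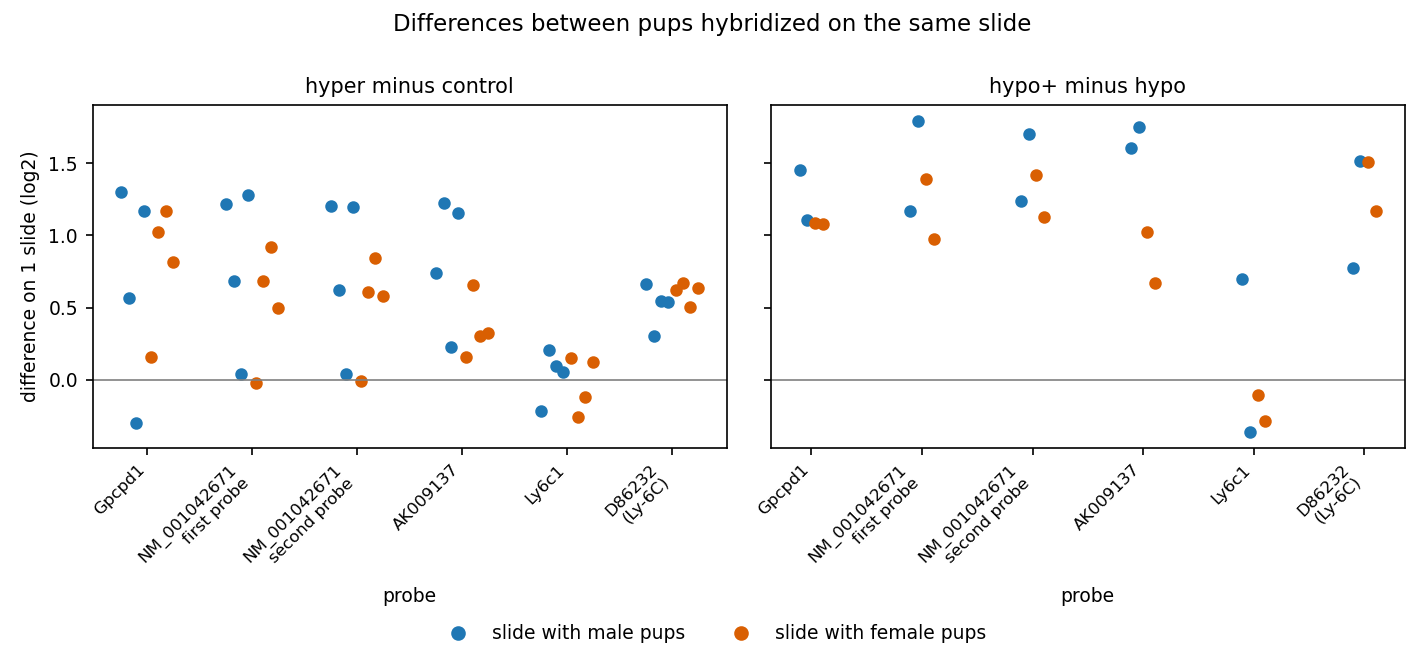
Difference in log2 ratio between pups on the same slide (vertical axis) for the 6 probes, with 1 point for each of 8 slides (hyper minus control) and 4 slides (hypo+ minus hypo), coloured by sex. The points of Gpcpd1, AK009137, D86232 and both NM_001042671 probes lie above 0 on all 4 slides at right, and those of Ly6c1 on 1.

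Gpcpd1 and AK009137 varied together over the 34 arrays, which share the 8 groups, with a Pearson r of 0.84. After subtraction of the group means r was 0.49, and it was 0.16 when the 2 pups of slide 6 were also left out. Each of them was more like the first NM_001042671 probe, with r of 0.94 for Gpcpd1 and 0.93 for AK009137. After subtraction of the group means r was 0.76 for both, and without the pups of slide 6 it was then 0.58 and 0.60. Ly6c1 had r of -0.13 with Gpcpd1, -0.08 with AK009137 and -0.19 with D86232.

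The genes with the pattern most like Gpcpd1 over the 34 arrays, after NM_001042671, were DXBay18 (r = 0.90), Gne (0.89), which encodes an enzyme of sialic acid synthesis, N4bp2l1 (0.89) and AK078889 (0.88). For AK009137 they were, after NM_001042671, Bcl2l11 (r = 0.88), which encodes the proapoptotic protein Bim, DXBay18 (0.86), Them4 (0.86) and Snx21 (0.86). For Ly6c1 the 5 highest were Tmem163 (r = 0.77), Emb (0.75), Arxes2 (0.70), Mboat2 (0.69) and Napsa (0.68). For D86232 they were Abcd3 (r = 0.95), a transporter of the peroxisome membrane, Nudt7 (0.95), a peroxisomal hydrolase, Trp53inp2 (0.94), Sned1 (0.93) and BC024137 (0.93). These correlations describe a pattern over arrays that share treatments.

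Of the other genes of choline and glycerophosphodiester metabolism, 1 of 35 measured rose and 1 fell in hyper against control pups over both sexes, where limma called 274 of all 41174 probes higher (0.665%) and 75 lower. Gpam, which encodes an enzyme that attaches the first fatty acid to glycerol-3-phosphate, rose by 0.21 (SE 0.05, adjusted p = 0.0208 by limma). Chka, which encodes choline kinase, fell by 0.55 (SE 0.12, adjusted p = 0.0118). The median over the 35 genes was -0.03, beside 0.00 over all probes, and each single sex gave 0 calls, with 2 genes for males and 3 for females at an unadjusted p below 0.05 by limma.

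Of the Ly6 family and its relatives with the same fold, 0 of 26 measured genes were called by limma in hyper against control pups in males, in females or over both sexes, and 0 had an unadjusted p below 0.05 in each. Over both sexes Ly6a was at 0.08 (SE 0.07) and Ly6e at 0.06 (SE 0.08), and the median of the list was -0.02. Ly6c2 was matched to no probe. The markers of monocytes and neutrophils, cells that carry Ly6c proteins, gave 0 of 16 called, with 0, 1 and 0 at an unadjusted p below 0.05 by limma in males, females and over both sexes. Their mean log2 ratio lay between 0.67 and 1.06 in control and 0.58 and 1.16 in hyper males, and between 0.78 and 1.16 in control and 0.89 and 1.13 in hyper females. In hypo and hypo+ pups it ranged from 0.64 to 1.22 and 0.47 to 1.29 in males and from 0.80 to 1.16 and 0.70 to 0.96 in females. Their part in the values of D86232 was not tested.

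Of the markers of Kupffer cells (11 genes), endothelial cells (14), lymphocytes (11) and erythroid cells (9), limma called 0 in hyper against control in either sex or over both, and 0 had an unadjusted p below 0.05. The gene lists, here and above, were written with earlier results of these data known. Their counts beside the share over all probes are therefore a description and cannot show enrichment. Among TH-responsive liver genes, 3 of 19 rose over both sexes, against 0.665% of all probes. These were Bcl3 by 0.87 (SE 0.12, adjusted p = 4.96e-05 by limma), Gpd2 by 0.52 (adjusted p = 0.00877) and Me1 by 0.37 (adjusted p = 0.0168). Dio1 was at 0.33 (SE 0.17, adjusted p = 0.777) and Thrsp at 1.01 (SE 0.26, adjusted p = 0.0632). Interferons raise Ly-6 proteins on lymphocytes. Of 19 interferon-responsive genes 2 rose over both sexes, against the same 0.665%, Gbp3 by 0.56 (adjusted p = 0.0201 by limma) and Gbp2 by 0.34 (adjusted p = 0.0187). The mean log2 ratio of the 19 genes ranged from 0.05 to 0.35 in control, 0.23 to 0.44 in hyper, -0.04 to -0.02 in hypo and -0.15 to 0.15 in hypo+ males. In females the ranges were 0.05 to 0.34, 0.25 to 0.45, -0.12 to 0.60 and -0.07 to 0.16. The part of interferons in the values of D86232 was not tested. In females alone limma called Bcl3 at 1.06 (adjusted p = 0.0351) and Irf1 at 0.36 (adjusted p = 0.0483) of these lists, and in males it called 0, with 4 and 3 genes at an unadjusted p below 0.05.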

How the data were processed

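Liver RNA of 34 pups was measured on 2-colour arrays with pup RNA in Cy5, the common reference in Cy3 and no dye swap. Groups were taken from the sample titles. For each spot the authors deposited the scanner's median intensity in each channel and a log10 ratio of Cy5 to Cy3, and a table of log2 ratios whose scale was found by comparison with the scanner values. The 2 arrays of each sex that the authors removed as outliers are not analysed here.

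From the median signals, control spots and marked outlier spots (77 to 212 per array) were left out, log2 ratios were normalized by loess within arrays in limma 3.58.1 (R 4.3.3), and spots of a probe were averaged. Of 33541 identifiers, 16806 matched a RefSeq symbol. Local background was not subtracted in these main values. Scaling by loess assumes that most probes do not change. Hyper was compared with control by limma with 4 groups per sex, or 8 groups for the mean and the difference of the sexes, with Benjamini-Hochberg adjustment over all 41174 probes and a threshold of 0.05. P-values describe the spread between single pups. The number of arrays limits the precision.

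The members and lists were chosen with earlier results of these data known, and contrasts with hypo or hypo+ pups were not tested. Named genes are the member probes, near relatives, the 5 genes most alike by Pearson r (probes well above background in Cy5 on at least 17 arrays), list genes called in hyper against control, Dio1 and Thrsp. The fit was tested on simulated data. Alternatives were normexp background correction (offset 50, on median signals since the files hold no mean signals), median centring, the authors' log2 values, the scanner's ratio, Cy5 alone, a filter on dim probes, slide or scan day as a block, fewer or more groups in the fit, litter by the first digits of the animal number as a random block, and each array left out. This litter is an assumption, since the labels do not give it. Leaving out slide 6 or the pups with acinar markers, and the probes of D86232 and NM_001042671, were added after seeing the data. Figures were drawn with matplotlib 3.10.9.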

Additional observations from a re-analysis of the deposited data

Results flagged for a closer look

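Among the 42 groups of 4 or 5 pups examined over the 6 probes, in which chance alone would single out about 1 in 20, 2 pups lay far from the rest of their group. Hypo female 893 had the highest log2 ratio of Ly6c1 in its group, -1.50, against -1.67 to -1.63 in the other 4 hypo females. Control male 522 had the lowest log2 ratio of D86232 in its group, -0.18, against 0.17 to 0.18 in the other 3 control males. The same male was the highest control for Gpcpd1, at 1.67, and for AK009137, at 1.98, and carried pancreatic acinar markers at a mean log2 ratio of 4.35. The part of these markers in its values was not tested.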

How the results depend on the processing

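The direction of hyper against control was kept by Gpcpd1, AK009137, D86232 and both NM_001042671 probes in each of the 109 values computed for each probe under the alternatives and with single arrays left out, whereas Ly6c1 was above 0 in 68 of 109. Hypo+ minus hypo was above 0 in all 48 values of each of the same 5 probes and in 21 of 48 for Ly6c1. For Gpcpd1 in males it moved to 1.97 with the scanner's ratio. No paired analysis was possible because the groups share no replicate numbers, and slide and the assumed litter served as blocks instead. The cause of the following changes was not tested. Over both sexes Gpcpd1 passed the threshold at 0.67 with the filter on dim probes, with only hyper and control arrays and without slide 6, at 0.71 with slide as a fixed block and with scan day, and at 0.68 with slide as a random block, and it passed in females at 0.77 with slide fixed. AK009137 passed over both sexes at 0.62 without slide 6. With normexp the NM_001042671 probes no longer passed over both sexes, at 0.63 and 0.59, nor with median centring, at 0.69 and 0.66, nor with Cy5 alone, at 0.63 and 0.62, and the second missed it with litter as a block, at 0.63, and without the pups with acinar markers, at 0.70. D86232 no longer passed in females at 0.80 and over both sexes at 0.62 with median centring, and in females at 0.65 with the scanner's ratio and 0.56 with Cy5 alone. Ly6c1 changed sign at -0.028 in males and 0.081 in females with median centring, in females at 0.070 with the scanner's ratio and 0.064 with Cy5 alone, and at -0.078 in males and -0.053 over both sexes without the pups with acinar markers. The sex difference changed sign for Ly6c1 at 0.11, 0.027 and 0.050 (median centring, Cy5 alone, without the pups with acinar markers), for Gpcpd1 at -0.14 and -0.34 (the last 2 of these), for D86232 at -0.027 (Cy5 alone) and for the second NM_001042671 probe at 0.0059 (median centring).

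With 1 array left out, hyper minus control in males, females and over both sexes ranged from 0.52 to 0.86, 0.58 to 0.79 and 0.60 to 0.77 for Gpcpd1, from 0.69 to 1.10, 0.18 to 0.51 and 0.52 to 0.74 for AK009137, from -0.026 to 0.10, -0.077 to 0.0062 and -0.033 to 0.032 for Ly6c1, from 0.43 to 0.58, 0.61 to 0.68 and 0.53 to 0.61 for D86232, from 0.72 to 0.99, 0.41 to 0.68 and 0.61 to 0.77 for the first NM_001042671 probe and from 0.65 to 0.93, 0.40 to 0.67 and 0.58 to 0.72 for the second. The sex difference of Gpcpd1 ranged from -0.18 to 0.16. Ly6c1 hypo minus control in males ranged from -0.06 to 0.08, hypo+ minus control in males from -0.10 to 0.16, hypo+ minus hypo in males from -0.10 to 0.16, and D86232 hypo+ minus control in males from -0.03 to 0.12.

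The number of probes called in males, in females and over both sexes was 31, 65 and 349. It was 4 in males and 157 over both sexes with normexp, 2, 6 and 33 with median centring, 7 and 15 in males and females with the scanner's ratio, 4 and 37 with Cy5 alone, 201 in females and 538 over both sexes with slide fixed, 51, 148 and 602 with slide random, 153 in females with scan day, 13 in males with only hyper and control arrays, 62 in males with both sexes in 1 fit and with litter as a block, and 1, 36 and 189 without the pups with acinar markers. With 1 array left out it ranged from 15 to 31, 14 to 88 and 250 to 370. The Ly6c1 probe was dim in the pups, which limits what its small differences can show.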
